A study of Mus musculus with 8 samples.

Results

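The 10 genes described here, Sftpc, Sftpb, Sftpa1, Sftpd, Abca3, Lamp3, Slc34a2, Napsa, Etv5 and Cxcl15, are expressed by alveolar type 2 cells of the mouse lung or belong to the surfactant system. They were chosen by symbol, and all 10 were found, each on 1 row, among the 24625 rows of a table of log2 expression values. The study isolated neutrophils from the lungs of wild type mice (female C57BL/6J, aged 6 to 12 weeks per the labels) with magnetic beads against the surface protein Ly6G. Cells were taken 24 h after the left lung had received, through the trachea, PBS or a suspension of Streptococcus pneumoniae (SP), at 2.3 µl per gram of mouse. There were 4 PBS and 4 SP samples, each on its own Affymetrix Mouse Gene 1.1 ST array. No mouse carried an engineered allele, and both groups went through the same instillation, enzymatic digestion of the lung and bead isolation. Per the methods, the purity of the isolated cells was examined on stained cytospins in the SP group. The labels do not say that each sample came from a separate mouse, so p-values measure the spread between these samples.

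Alveolar type 2 cells are cuboidal epithelial cells that make pulmonary surfactant, a film of phospholipids and proteins that keeps alveoli open at the end of each breath. They store surfactant in lamellar bodies, which are lysosome-related organelles, and release it by exocytosis. Surfactant proteins B and C are small hydrophobic proteins that spread the lipid film, whereas surfactant proteins A and D are collectins that bind sugars on microbes. Type 2 cells also divide to replace the flat alveolar type 1 cells after injury. None of the 10 genes is a usual marker of neutrophils.

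Most of the 10 genes were lower in SP. Taking limma's adjusted p of 0.05 and a 2-fold difference as thresholds, 6 fell (Etv5, Abca3, Cxcl15, Sftpb, Slc34a2 and Lamp3) against 11.3% of all rows, and 0 were higher against 6.37%. All 10 differences were below 0 (39.4% of all rows). At an unadjusted p of at most 0.05, 9 were lower and 0 higher, and the methods' t-test, too, called 0 higher. Shares of all rows were not computed for these counts. Without the fold threshold 8 genes were lower (22.6% of all rows), since Sftpc and Sftpa1 fell by under 2-fold. When the test asked for a difference significantly above 2-fold (limma treat), 0 of the 10 passed, against 3.7% of all rows passing as lower. The median difference of the 10 genes was -1.15 log2 units, beside 0.10 over all rows. In such cell preparations, fewer cells of a type, a smaller share of them among all isolated cells and less RNA per cell cannot be told apart.

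RefSeq promoters of assembly GRCm38.p6, from 250 bases before to 50 after the start site, were matched to 7 of the 10 genes. Shown are those of the 4 genes with the largest falls: Etv5 (the first of its start sites, chr16:22439521-22439820, minus strand), Abca3 (chr17:24351773-24352072, plus strand), Cxcl15 (chr5:90794284-90794583, plus strand) and Sftpb (chr6:72304360-72304659, plus strand). They are written 5′ to 3′ along the gene. Capitals mark matches, on either strand, to CTCAAG, a core of sites for the lung epithelial factor NKX2-1, to the forkhead motif TGTTTAC and to TATAAA. No matches overlapped.
Etv5: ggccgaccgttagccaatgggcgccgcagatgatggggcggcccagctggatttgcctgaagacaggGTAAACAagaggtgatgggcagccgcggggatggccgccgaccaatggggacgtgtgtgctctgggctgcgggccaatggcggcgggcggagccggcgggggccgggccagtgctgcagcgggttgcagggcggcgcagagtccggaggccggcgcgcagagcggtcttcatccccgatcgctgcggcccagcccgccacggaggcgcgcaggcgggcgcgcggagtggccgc
Abca3: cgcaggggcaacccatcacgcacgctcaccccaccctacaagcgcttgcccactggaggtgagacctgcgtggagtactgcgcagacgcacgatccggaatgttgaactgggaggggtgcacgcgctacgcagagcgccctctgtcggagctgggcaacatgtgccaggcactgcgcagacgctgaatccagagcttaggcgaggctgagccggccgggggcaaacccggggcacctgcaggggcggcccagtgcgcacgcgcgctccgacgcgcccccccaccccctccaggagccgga
Cxcl15: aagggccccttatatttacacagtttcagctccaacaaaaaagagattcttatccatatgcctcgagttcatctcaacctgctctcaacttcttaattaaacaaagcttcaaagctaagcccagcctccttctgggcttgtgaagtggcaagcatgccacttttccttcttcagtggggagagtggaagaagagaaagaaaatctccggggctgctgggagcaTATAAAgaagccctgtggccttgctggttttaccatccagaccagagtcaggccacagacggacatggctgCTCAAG
Sftpb: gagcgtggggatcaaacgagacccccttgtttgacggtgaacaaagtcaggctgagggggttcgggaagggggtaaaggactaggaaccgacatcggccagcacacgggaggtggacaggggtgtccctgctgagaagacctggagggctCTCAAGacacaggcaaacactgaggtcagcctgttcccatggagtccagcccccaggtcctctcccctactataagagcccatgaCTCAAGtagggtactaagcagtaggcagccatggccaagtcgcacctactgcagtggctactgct
CTCAAG occurred in the promoters of 3 of the 7 genes (Sftpb, Sftpa1 and Cxcl15), against 15.9% of 32851 promoters of that length. In Sftpb the motif began at positions -100 and -15 relative to the start site, and in Sftpa1 at -166. In Cxcl15 it began at position 45, after the start site. TGTTTAC was present in Lamp3 and Etv5 (3.65% of promoters), and TATAAA in Sftpa1 and Cxcl15 (13.6%). No single one of these motifs was shared by the 4 promoters shown, and the Abca3 window held none of the 3. A match describes letters and is not a measured binding site.

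The hydrophobic surfactant proteins were both lower in SP. Sftpc (NM_011359, GRCm38.p6 chr14:70520941-70524081), which encodes surfactant protein C and is the most widely used type 2 cell marker, had log2 values of 13.32, 13.45, 13.26 and 13.29 in PBS replicates 1 to 4 and 12.42, 12.01, 12.32 and 12.83 in SP replicates 1 to 4. The groups did not overlap, and the nearest values were 0.42 apart. Means were 13.33 ± 0.08 and 12.39 ± 0.34 (SD, n = 4), a 1.91-fold reduction (log2 difference -0.93, SE 0.16, 95% interval -1.30 to -0.57, limma adjusted p = 0.00206). Sftpb (NM_001282071, chr6:72304610-72314373) encodes surfactant protein B, without which lamellar bodies do not form properly. Its values were 12.60, 12.93, 12.48 and 12.55 in PBS and 11.34, 10.96, 10.53 and 11.83 in SP. Every SP array lay below every PBS array, with replicate 3 lowest. Sftpb was reduced 2.78-fold, from 12.64 ± 0.20 to 11.16 ± 0.55 (SD, n = 4; log2 difference -1.48, SE 0.26, limma adjusted p = 0.00221).

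The collectins gave less settled values. Sftpa1 (NM_023134, chr14:41131788-41136373), which encodes surfactant protein A, had values of 12.91, 13.11, 12.78 and 12.79 in PBS and 12.27, 11.97, 11.00 and 12.61 in SP. The groups were 0.17 apart at their nearest, and SP replicate 3 stood lowest. The reduction was 1.92-fold (log2 difference -0.94, SE 0.31, 95% interval -1.64 to -0.23, limma adjusted p = 0.0375). This call did not hold when any of the 4 PBS replicates or SP replicate 1 or 2 was left out (limma adjusted p from 0.0508 to 0.0854). Without SP replicate 3 the difference was -0.62 and the call held (limma adjusted p = 0.017). Sftpd (NM_009160, chr14:41172212-41185198), which encodes surfactant protein D, read 10.95, 11.65, 10.80 and 10.74 in PBS and 11.10, 10.53, 10.07 and 11.44 in SP. Its groups overlapped, since SP replicates 1 and 4 lay above 3 of the PBS arrays. The log2 difference of Sftpd was -0.25 (SE 0.32, 95% interval -0.98 to 0.48, limma adjusted p = 0.524), and it was 0.03 after centring each array on its median. Sftpa1 and Sftpd are neighbours on chromosome 14 and both encode collectins, but the difference between their responses was not tested.

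Genes of the lamellar body differed in the size of their response. Abca3 (NM_001039581, chr17:24351921-24410204) encodes the transporter that carries phospholipids into lamellar bodies, and read 10.74, 11.49, 10.63 and 10.67 in PBS and 9.0, 8.66, 7.73 and 9.35 in SP. All SP values were more than 1 log2 unit below the lowest PBS value. The reduction was 4.59-fold, from 10.88 ± 0.41 to 8.68 ± 0.70 (SD, n = 4; log2 difference -2.20, SE 0.35, limma adjusted p = 0.00137). Lamp3 (NM_177356, chr16:19653381-19706365) encodes a membrane protein of lamellar bodies that mature dendritic cells also carry. Its values were 11.40, 12.00, 11.19 and 11.17 in PBS and 10.88, 10.04, 9.40 and 11.15 in SP. SP replicate 4 came within 0.02 of the lowest PBS value. The 2.10-fold reduction of Lamp3 (log2 difference -1.07, SE 0.38, limma adjusted p = 0.0496) lost its call without any 1 of the 8 samples other than SP replicate 4, at an adjusted p of 0.0511 to 0.116.

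Napsa (NM_008437, chr7:44572445-44586846) encodes an aspartic protease that helps to process the precursors of surfactant proteins B and C. It read 11.07, 11.18, 11.19 and 11.14 in PBS and 10.45, 10.22, 11.19 and 10.91 in SP. SP replicate 3, the lowest SP array for 8 of the other genes, was here the highest and level with the highest PBS values. The log2 difference was -0.46 (SE 0.20, 95% interval -0.91 to -0.0048, limma adjusted p = 0.0888). Without SP replicate 3 it was -0.62 with an adjusted p of 0.015 by limma. Without SP replicate 2 it was -0.30 (limma adjusted p = 0.177), and with arrays centred on their median -0.17 (limma adjusted p = 0.456).

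Slc34a2 (NM_011402, chr5:53049353-53071664) encodes the sodium-phosphate cotransporter of the type 2 cell's apical membrane, which takes up phosphate freed from surfactant lipids. Its values were 12.99, 13.36, 12.91 and 12.90 in PBS and 12.26, 11.75, 10.79 and 12.48 in SP. The groups did not overlap. Slc34a2 was reduced 2.33-fold (log2 difference -1.22, SE 0.34, limma adjusted p = 0.0198), with an adjusted p of 0.051 when PBS replicate 2 was left out. The difference of Slc34a2 was under 2-fold without SP replicate 3 (-0.88), with both of these arrays left out (-0.77), with array weights (-0.88) and with arrays centred on their median (-0.94).

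Etv5 showed the largest difference of the 10 genes. It (NM_023794, chr16:22381313-22439570) encodes an ETS family transcription factor that acts downstream of receptor tyrosine kinase signalling and maintains type 2 cell identity. Values were 9.12, 10.16, 9.25 and 9.23 in PBS and 7.37, 7.04, 6.05 and 7.99 in SP. The highest SP value was more than 1 log2 unit below the lowest PBS value, and PBS replicate 2 stood above its group. Etv5 was reduced 5.01-fold, from 9.44 ± 0.48 to 7.11 ± 0.81 (SD, n = 4; log2 difference -2.33, SE 0.40, limma adjusted p = 0.00222).

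Cxcl15 (NM_011339, chr5:90794534-90803067) encodes lungkine, a CXC chemokine of lung epithelium that draws neutrophils into the airspace. It read 13.39, 13.57, 13.25 and 13.33 in PBS and 12.04, 11.72, 10.55 and 12.45 in SP. All SP arrays lay below the PBS arrays, which spanned a narrow range. The reduction was 3.23-fold, from 13.38 ± 0.14 to 11.69 ± 0.82 (SD, n = 4; log2 difference -1.69, SE 0.36, limma adjusted p = 0.00577).

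**Figure D1:**
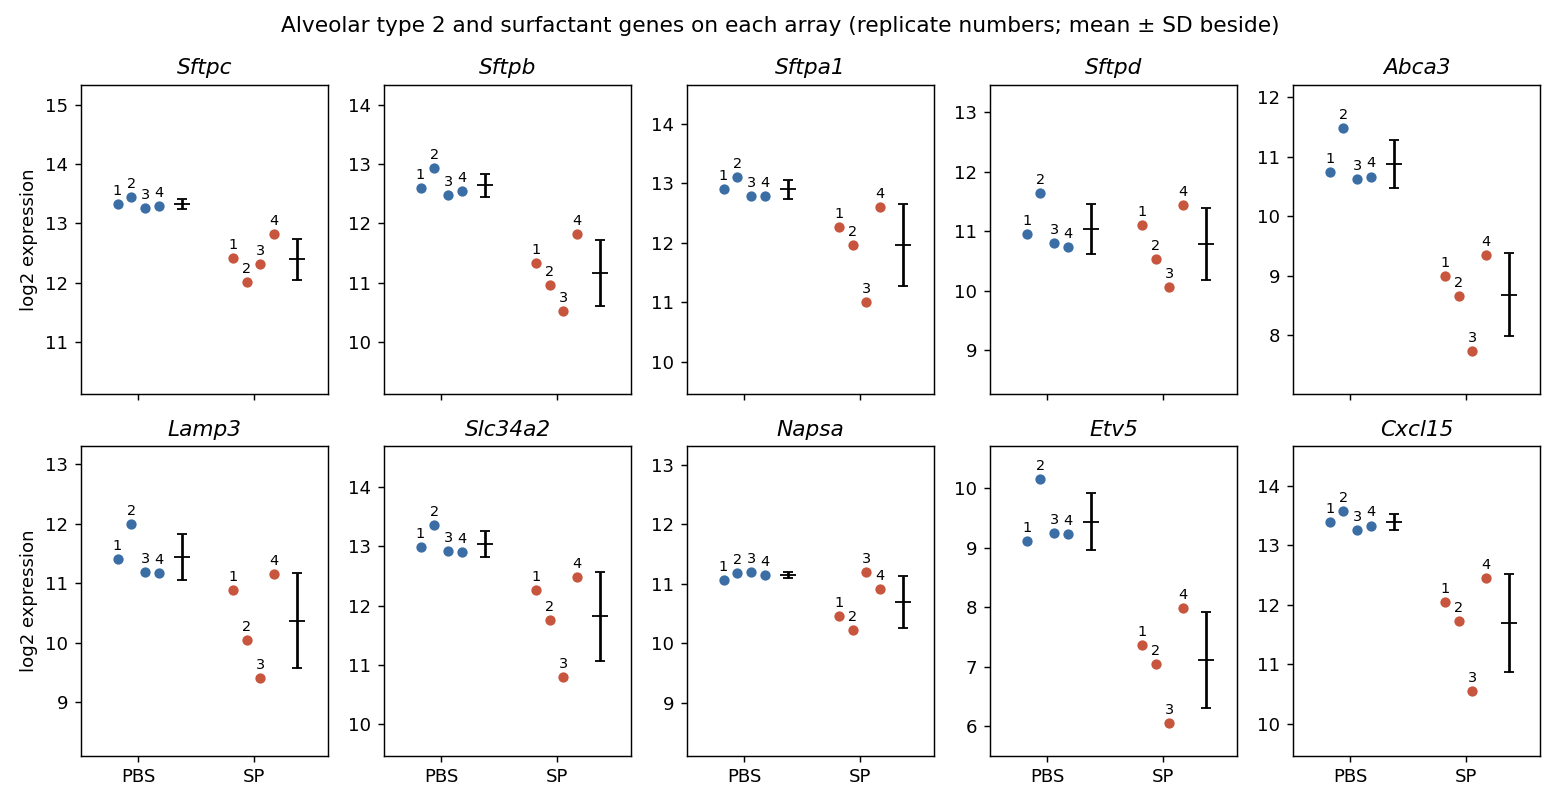
Log2 expression (vertical axis, 5.2 log2 units in each panel) of each gene in the PBS (blue) and SP (red) arrays, with replicate numbers as labels and the mean ± SD (n = 4) beside each group. Groups do not overlap in 8 panels, and they overlap for Sftpd and Napsa.

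**Figure D2:**
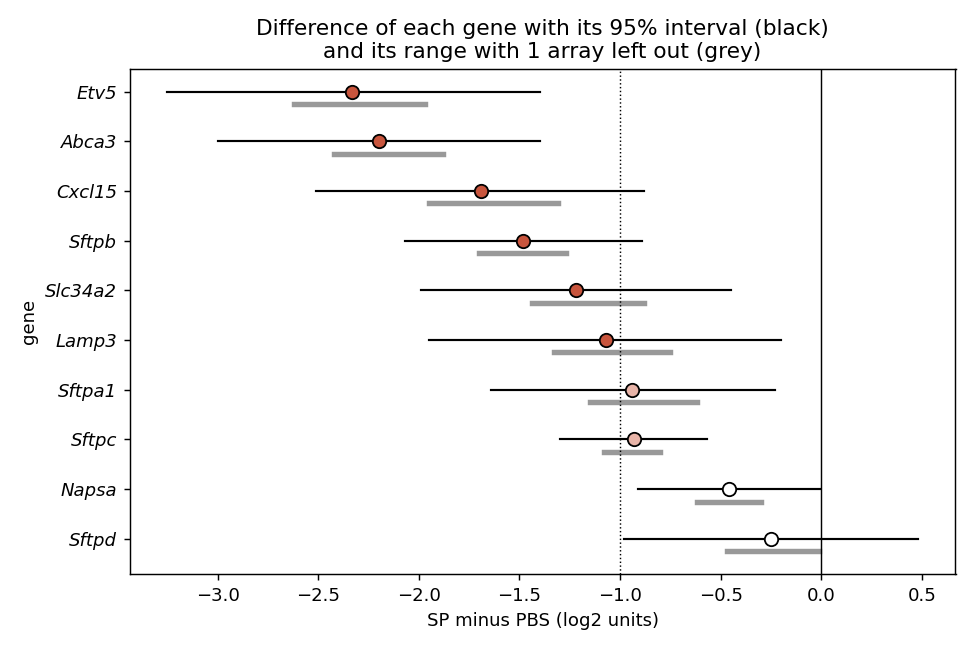
SP minus PBS difference of each gene in log2 units (horizontal axis), with its 95% interval in black and the range of the difference with 1 array left out in grey; dark points passed the adjusted p and 2-fold thresholds, pale points the adjusted p alone, and white points neither, and the dotted line marks 2-fold. Differences run from -2.33 (Etv5) to -0.25 (Sftpd).

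The values of 8 of the 10 genes did not overlap between the groups, with SP lower in each (21.8% of all rows), and 0 had every SP value above PBS (27.2%). Sftpc, Sftpb, Abca3, Etv5 and Cxcl15 kept their direction in each of 16 alternative settings, where limma or the methods' t-test gave adjusted p values up to 0.0228. Sftpa1, Lamp3, Slc34a2 and Napsa also kept their direction in all 16, but not their adjusted p calls, and Sftpd kept its direction in 13. With PBS replicate 2 and SP replicate 3 left out together, 4 genes were lower at 2-fold, a count with no share of all rows beside it.

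The 10 genes shared an order of arrays. PBS replicate 2 was the highest PBS array for 9 of them (31.9% of all rows), and all 10 were above their PBS mean there. SP replicate 4 was the highest SP array for 9 (23.7% of all rows) and SP replicate 3 the lowest for 8 (33.9%). For 8 genes the SP arrays ran in the order replicate 4, 1, 2 and 3 from high to low, an order found in 5.44% of all rows. The exceptions were Sftpc, which was lowest in SP replicate 2, and Napsa, which was highest in SP replicate 3. In SP replicate 3 the other 8 genes lay 0.63 to 1.14 log2 units below their SP mean, whereas Sftpc lay 0.07 below and Napsa 0.50 above. The SD was larger in SP than in PBS for all 10 genes, against 65.7% of all rows. With SP replicate 3 set aside, the other SP arrays were below every PBS array for 9 genes (23.9% of all rows), with Sftpd the exception.

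**Figure D3:**
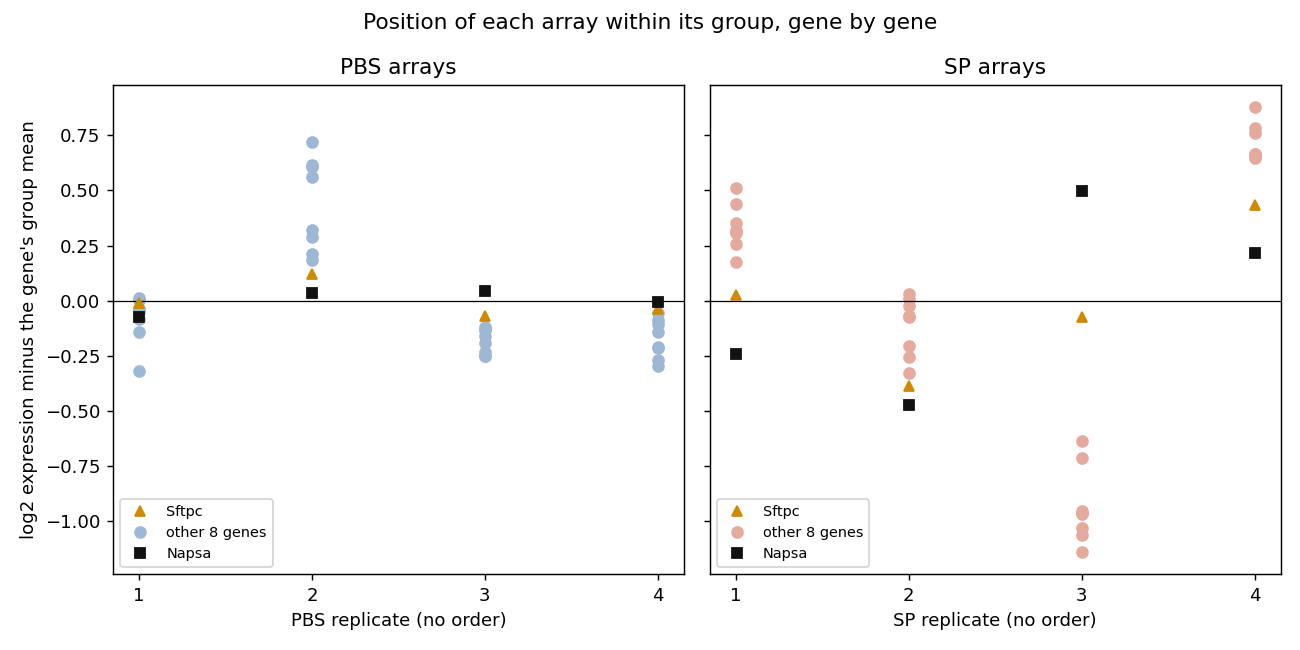
Log2 expression of each gene minus its group mean (vertical axis) in each replicate (horizontal axis) of the PBS (left) and SP (right) groups, with Sftpc as triangles, Napsa as squares and the other 8 genes as circles. In SP replicate 3 the 8 circles lie from -1.14 to -0.63, Sftpc at -0.07 and Napsa at 0.50.

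Whether the genes fell in proportion to Sftpc was examined from the log2 ratio of Sftpc to each other gene within an array, which does not depend on how the arrays are centred. Relative to Abca3, the ratio averaged 2.44 ± 0.33 in PBS and 3.71 ± 0.59 in SP (SD, n = 4), a change of 1.27, with no overlap between the groups. The changes relative to Etv5, Cxcl15 and Sftpb were 1.39, 0.76 and 0.54, and that relative to Napsa was -0.48. These 5 reached the smallest p that an exact two-sided permutation test over 70 arrangements can give, 0.0286. Adjusted over the 9 pairs tested, each had a p of 0.0514, so 0 of 9 passed (exact permutation). With 5 ratios at the smallest p none can pass, so this count does not show equal changes. Relative to Sftpa1, Lamp3 and Slc34a2 the changes were 0.01, 0.14 and 0.29, and relative to Sftpd -0.69 (exact permutation adjusted p from 0.0857 to 1).

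SP replicate 3 set much of the spread in these ratios. The Sftpc to Sftpa1 ratio was 0.15, 0.04, 1.32 and 0.22 in SP replicates 1 to 4, and its PBS values lay between 0.34 and 0.49. Replicate 3 was above all PBS arrays and the other SP arrays were below them. Without SP replicate 3, 6 of the 9 ratios reached the smallest possible p, 0.0429 after adjustment (exact permutation, 35 arrangements). Leaving out any other single sample gave 0. Since all ratios share Sftpc and the count depends on how many reach the smallest p, it does not measure the size of the changes. Among the 6, the change relative to Sftpa1 was -0.29, so that Sftpc fell more than Sftpa1 in those arrays. The changes relative to Abca3, Etv5, Cxcl15 and Sftpb were 0.97, 1.06, 0.40 and 0.36. The change relative to Napsa was -0.29.

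Other genes of the type 2 cell fell with the 10. Of 18 further type 2 cell markers, 12 were lower and 0 higher at 2-fold (13 lower and 1 higher without the fold threshold), with a median difference of -1.46. Acoxl, an enzyme of peroxisomal lipid oxidation, fell from 9.13 ± 0.38 to 6.15 ± 0.15 (SD, n = 4; 7.91-fold, limma adjusted p = 1.38e-05). Lgi3, which encodes a secreted leucine-rich repeat protein, fell from 10.56 ± 0.31 to 5.98 ± 0.83 (SD, n = 4; 24.0-fold, limma adjusted p = 5.24e-05). Chil1, a chitinase-like protein that other lung and myeloid cells also make, was slightly higher in SP (difference 0.32, limma adjusted p = 0.00599).

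Enzymes of surfactant lipid synthesis were lower more often than higher. Of 21 genes, 9 were lower and 1 higher at 2-fold (14 lower and 4 higher without the fold threshold), and the median difference was -0.69. Lpin1, a phosphatidate phosphatase, fell 4.70-fold (7.99 ± 0.20 to 5.76 ± 0.28, SD, n = 4), and Srebf1, the transcription factor that drives fatty acid synthesis, fell 2.08-fold. Pcyt1a moved the other way and rose 2.23-fold (9.55 ± 0.27 to 10.71 ± 0.33, SD, n = 4, limma adjusted p = 0.00161). It encodes the rate-limiting enzyme of phosphatidylcholine synthesis in most cells. The other genes higher without the fold threshold, named after their values were seen, were Chka, a choline kinase (difference 0.70), Cept1, a phosphotransferase of the same pathway (0.65), and Insig1, which restrains sterol synthesis (0.48). Prdx6, a peroxiredoxin with phospholipase activity, differed by -0.29 (limma adjusted p = 0.0641). Most of these enzymes work in all cells, so their values are not those of type 2 cells alone.

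Transcription factors of the alveolar epithelium fell with few exceptions. Of 10, 9 were lower at 2-fold and 0 higher (0 higher also at an unadjusted p of at most 0.05), and the median difference was -2.01. Foxa1 and Foxa2, forkhead factors that act on surfactant protein genes, fell by 2.61 and 1.30 on the log2 scale. Elf5 fell 5.81-fold, Gata6 4.22-fold and Klf5 3.71-fold. The SP values of Elf5, 4.97 to 5.58, were close to those of Y-linked rows in these female mice (4.33 to 4.90), so background may limit its fold. The exception among the 10 factors was Cebpa, which myeloid cells also need, with a difference of -0.64 (limma adjusted p = 0.124). Its highest SP value was in replicate 3.

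Genes around Etv5 in its pathway differed in direction and size. Their values are those of the whole preparation and not of type 2 cells alone. In type 2 cells, Etv5 lies downstream of FGF receptor signalling, and the sprouty, Spred and Dusp6 genes are targets and inhibitors of the same signal. Of 8 such genes 3 were lower at 2-fold and 0 higher (1 higher at an unadjusted p of at most 0.05), with a median of -0.06. Fgfr2, the epithelial receptor, fell 4.59-fold (10.19 ± 0.29 to 7.99 ± 0.62, SD, n = 4, limma adjusted p = 5.73e-04), Spry1 3.01-fold and Etv1 2.44-fold. Spry2, Spry4, Spred1, Dusp6 and Etv4 had differences of -0.28, 0.17, 0.34, 0.33 and 0.19, with limma adjusted p from 0.062 to 0.661. The Etv4 values, 4.49 to 4.95, were close to those of Y-linked rows in these female mice (4.33 to 4.90), so this row was not clearly above background. The medians of SP and PBS arrays differed by -0.28, and centring each array on its median raises every difference by that amount.

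Genes of lamellar body traffic, surfactant secretion and clearance had a median difference of 0.48. At 2-fold 2 of 14 were lower (11.3% of all rows) and 3 higher (6.37%), so the lower count was near the share of all rows. Rab3d, a GTPase of secretory vesicles, fell 3.93-fold and Mfsd2a, a transporter of lysophospholipids, 2.40-fold. P2ry2, the receptor through which extracellular ATP triggers surfactant secretion, rose 5.97-fold (8.74 ± 0.66 to 11.32 ± 0.18, SD, n = 4, limma adjusted p = 2.55e-04), and Csf2, which encodes GM-CSF, the cytokine that alveolar macrophages need to clear surfactant, rose 2.89-fold. Neutrophils and macrophages also express several genes of this list.

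Lamp3 was the member whose family and second cell type could be set beside it. Its relatives Lamp1, Lamp2 and Cd68, which are lysosomal proteins of many cells, differed by 0.65, 0.31 and 1.32, all higher in SP (limma adjusted p = 0.00914, 0.0317 and 0.00252). Of 5 markers of mature dendritic cells, 2 were higher at 2-fold, Cd40 (6.27-fold) and Fscn1 (2.13-fold), and 0 lower. At an unadjusted p of at most 0.05, 3 were higher and 1 lower. The lower gene, named after its values were seen, was Ccr7 (difference -0.72, limma adjusted p = 0.0577). Of 19832 symbols, those whose profile, centred on its own mean over the 8 arrays, had the smallest root mean square difference from that of Lamp3 were Mlc1 (0.164 log2 units), Slc34a2 (0.168), Plxnb2 (0.210), Swsap1 (0.211) and Car5b (0.213).

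For Sftpc the nearest profiles were those of Akr1b8 (0.075 log2 units), Wtip (0.081), Thop1 (0.112), Pfas (0.117) and Mfap3l (0.120), none of which is among the 10 genes. For Cxcl15 they included Hadh (0.107), Tmem163 (0.122), Ryk (0.124) and Atic (0.136). These measures describe likeness over 8 arrays and have no test.

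Markers of other lung cells moved in the same direction as the 10 genes. For alveolar type 1 cells, 9 of 11 markers were lower at 2-fold (median difference -1.85), among them Aqp5, a water channel (5.47-fold). For club cells 8 of 9 were lower (median -2.63), and Scgb1a1, the main secretory protein of these cells, fell by 0.63 on the log2 scale. For ciliated cells 12 of 12 were lower (median -2.75), with Dynlrb2 reduced 7.54-fold. General epithelial markers were lower in 9 of 9 (median -2.04), among them the keratins Krt8 (3.71-fold) and Krt18 (4.46-fold). None of these lists had a gene called higher at 2-fold or at an unadjusted p of at most 0.05. Averaged over the 9 general epithelial markers, arrays lay between 10.64 and 11.10 in PBS and between 8.31 and 9.32 in SP, with replicates 2 (PBS) and 4 (SP) highest and SP replicate 3 lowest, as for the mean of the 10 genes (11.77 to 12.29 and 9.96 to 11.30). The share of the type 2 cell result that goes with these epithelial levels was not tested.

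Endothelial (8 of 11 lower, median -1.33), fibroblast (4 of 9, median -0.66) and alveolar macrophage markers (5 of 9, median -1.48) also had 0 genes higher at 2-fold. At an unadjusted p of at most 0.05, 0 endothelial, 0 fibroblast and 1 alveolar macrophage marker were higher. Calcrl, an endothelial receptor component, fell 3.10-fold, Dcn, a matrix proteoglycan, 3.60-fold and Ear1, a ribonuclease of alveolar macrophages, 3.68-fold. Chil3, which several myeloid cells make, was higher in SP by 0.97 (limma adjusted p = 0.0216). The part of these cells in the differences of the 10 genes was not tested.

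Neutrophil markers were present in all samples, and none of the 10 with a row was called at 2-fold (0 lower and 0 higher). Without the fold threshold 3 were lower and 0 higher. At an unadjusted p of at most 0.05, 4 were lower and 0 higher. The median difference of the 10 markers was -0.37. Cxcr2, the chemokine receptor for CXC ligands, averaged 13.11 ± 0.13 in PBS and 12.87 ± 0.09 in SP (SD, n = 4). Averaged over the 10 markers, arrays lay between 12.15 and 12.41 in PBS and between 11.51 and 12.76 in SP. SP replicate 3, the array in which 8 of the type 2 cell genes were lowest, was the highest of all arrays in this mean. The granule genes Ngp, Camp and Ltf read 13.34, 10.94 and 12.10 there, and at most 12.25, 8.17 and 10.22 in the other SP arrays. Averaged over the other 7 markers, SP replicate 3 stood at 13.02, within the PBS range of 12.95 to 13.17. The other SP arrays stood lower in that mean, at 12.43 to 12.67. S100a8, S100a9, Retnlg, Cxcr2, Mmp8 and Mmp9 each had their highest SP value in replicate 3. Csf3r, the G-CSF receptor, was lowest of all arrays there (12.67). The part of the granule genes in the low type 2 cell values of this array was not tested. Rows of Y-linked genes, a measure of background in female mice, lay between 4.33 and 4.90, and the lowest value of any of the 10 genes was 6.05 (Etv5, SP replicate 3).

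**Figure D4:**
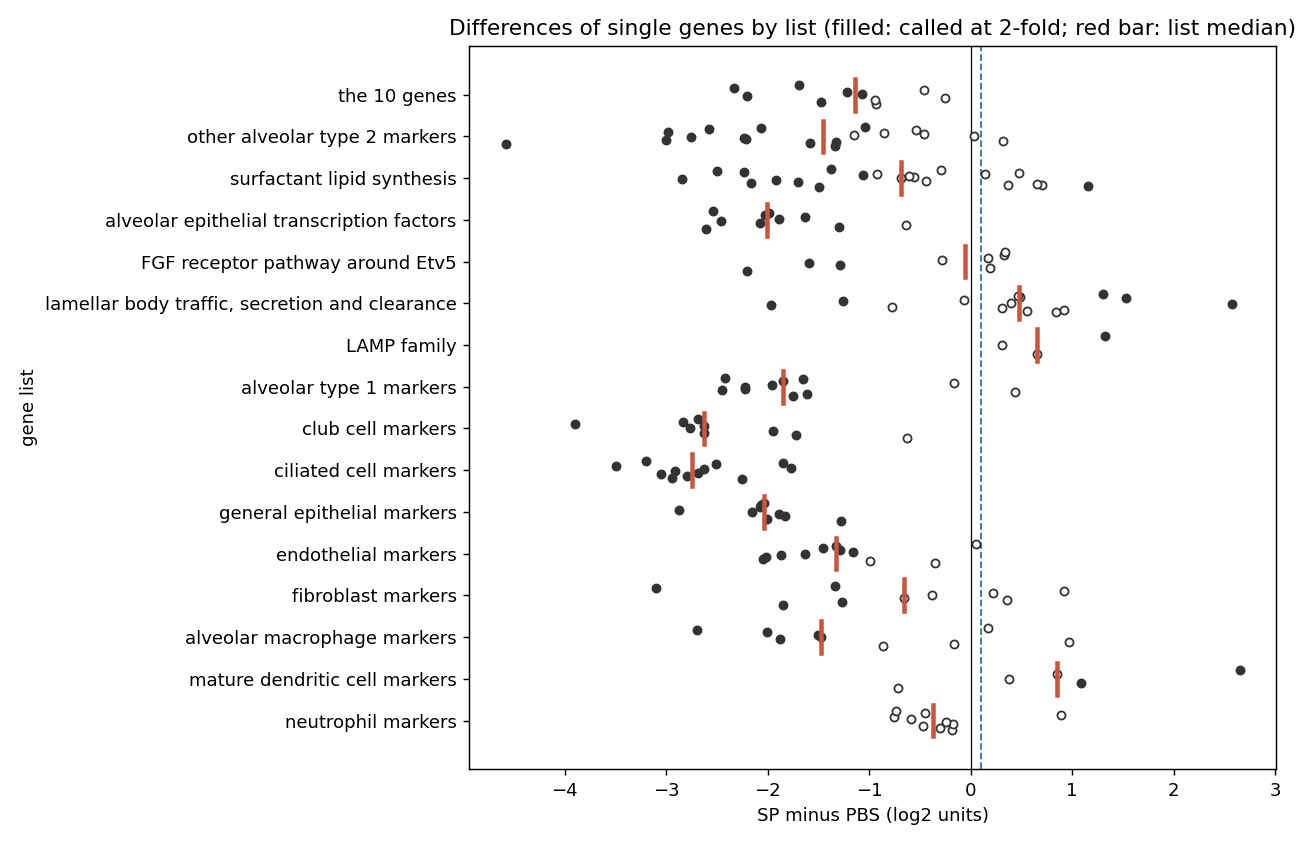
SP minus PBS difference in log2 units (horizontal axis) of every gene by list (vertical axis), filled where called at 2-fold, with the list median as a red bar and the median of all rows (0.10) as a dashed blue line. The median of the 10 genes is -1.15, those of the club and ciliated cell lists are -2.63 and -2.75, and that of the neutrophil list is -0.37.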

How the data were processed

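Messenger RNA was measured in 8 samples, grouped and numbered by their titles. As its methods state, the authors made the values by robust multi-array averaging with correction for GC content, quantile normalization and median polish, using custom gene mappings; the deposited values are on a log2 scale, so differences are relative within an array. Array medians were 6.06 to 6.20 in PBS and 5.78 to 5.91 in SP, and no arrays were identical. The number of arrays limits the precision. MicroRNA arrays were not analysed here.

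Rows were named through RefSeq accessions of GRCm38.p6 (19911 of 24625 rows, 80.9%). Coordinates are those of that table, since no build is attached to the deposited values. No row was matched to Sfta2, Syt7, Nkx2-1, Il12b, Ly6g, Rtkn2, Scgb3a2 or Foxj1.

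Groups were compared with limma (version 3.58.1, R 4.3.3; lmFit and eBayes, no covariates, two-sided, Benjamini-Hochberg adjustment over all rows), tested on simulated data. A call at 2-fold needed an adjusted p of at most 0.05 and a difference of at least 1 log2 unit. Ratios to Sftpc were compared by exact permutation, adjusted over 9 pairs. Motif searches and figures used Python 3.11.15.

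The 10 genes and 16 other lists were chosen with earlier results of these data known. Named are the 10 genes; of each list, among genes called at 2-fold, the 2 of lowest adjusted p in each direction and the gene of highest mean, or any gene of the FGF, LAMP, transcription factor and neutrophil lists; and the 5 profiles nearest to Sftpc, Cxcl15 and Lamp3. Results of 2 genes within this rule are not reported here. Alternatives were a trended robust prior, the methods' t-test (an ANOVA of the groups), a replicate block, array weights, median centring, another quantile normalization, leaving out dim rows, limma treat, and leaving out each sample. Leaving out PBS replicate 2 and SP replicate 3 together was chosen after seeing the data.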

Additional observations from a re-analysis of the deposited data

Results flagged for a closer look

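In 2 of 20 groups of 4 values examined (10 genes, PBS and SP), the highest array stood far from the others by Dixon's ratio, the gap to its neighbour over the group's range, compared with its 95% critical value. Both were PBS replicate 2, with a ratio of 0.868 for Abca3 (11.49 against 10.63 to 10.74) and 0.874 for Etv5 (10.16 against 9.12 to 9.25). Chance alone gives about 1 such array in 20 groups. Without PBS replicate 2, Abca3 and Etv5 were still called lower in SP by limma.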

How the results depend on the processing

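The 6 genes lower at 2-fold became 0 when limma treat asked for a difference significantly above 1 log2 unit. In that test 912 of all rows (3.70%) passed as lower in SP. The other settings gave 4 to 8, the same range as leaving out single samples, and their shares of all rows were not computed. Sftpd, which was not called in any setting, changed sign to 0.07 with array weights, to 0.03 with arrays centred on their median and to 0.20 without PBS replicate 2 and SP replicate 3. Of 16 settings without limma treat, Sftpa1 missed the adjusted p in 8 and Lamp3 in 11, among them the methods' t-test (adjusted p = 0.0767 and 0.0948). With the fold threshold Lamp3 lost its call in 12 and Slc34a2 in 5; Lamp3 differed by -0.68 with array weights. Napsa passed the adjusted p in 4 settings (0.00328 to 0.0291 by limma), and its difference over all settings ran from -0.67 to -0.17. Leaving out single samples gave 0 to 6 unequal ratios to Sftpc. That count depends on how many ratios reached the smallest permutation p, so it does not measure the size of the changes. The ratio changes ranged from -0.29 to 0.14 for Sftpa1, with -0.0028 and -0.02 without PBS replicates 1 and 2. They ranged from -0.16 (without SP replicate 3) to 0.30 for Lamp3, with -0.01 without PBS replicate 2, and from -0.03 (without SP replicate 3) to 0.43 for Slc34a2. Deviations of same-numbered PBS and SP samples had correlations of 0.016, 0.030, 0.350 and -0.274 for replicates 1 to 4. Only PBS replicate 3 was most alike to the SP sample of its own number. These correlations have no test, so whether the numbers pair samples is not known from them. With the replicate block, 5 genes were lower at 2-fold, Lamp3 (adjusted p = 0.0646) being the one that was not. The cause of these changes was not tested. Brightness of a row does not give the number of cells or molecules behind it.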
